A study of Mus musculus with 10 samples.

Results

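The comparison was of sorted pBIC10 lymphoma B cells (3 libraries) with sorted normal germinal centre B cells, named YC (4 libraries), from the spleens of C57BL/6 mice. Its members are the genes with enough counts to be tested, 17718 of the 46316 genes in the count table. The 3 pBIC10 and 4 YC libraries are 7 of the 10 libraries of the series, and the other 3 come from pBIC lymphoma, the same model with an intact Il10 gene. The genotype given for pBIC10 is p53F/F, Blimp1F/F, IKK2castopF/stopF, Cg1Cre/+ and IL-10F/F: floxed genes of p53, Blimp1 and IL-10, and an active IKK2 kinase behind a floxed stop. The YC genotype is YFPstopF/+ and Cg1Cre/+, so both groups carry the same Cre. Cg1Cre is driven by the immunoglobulin Cγ1 locus, which is switched on when B cells are activated and enter the germinal centre, and only cells in which it has acted show the reporter. The pBIC10 cells were sorted as B220+GFP+ cells from moribund mice, and the YC cells as B220+YFP+ cells. YC mice had been immunised 2 times with sheep red blood cells, 20 days apart, and their cells were taken 10 days after the later injection. Where label fields of YC name lymphoma cells, the wording of the series description was used instead. The pBIC10 libraries came from 2 females and 1 male and the YC libraries from 3 females and 1 male. The sources used here do not give ages.

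In the germinal centre, activated B cells cycle between a dark zone, where they divide and mutate their antibody genes, and a light zone, where they are selected by T follicular helper cells. The repressor BCL6 holds cells in this state, and Blimp1, encoded by Prdm1, ends it by starting plasma cell differentiation. The model joins a block of that exit, loss of p53 and constant NF-kB signalling, 3 features of the activated B cell-like type of diffuse large cell lymphoma.

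Library totals were 17.1, 17.1 and 18.6 M counts in pBIC10 and 12.6 to 14.3 M in YC, so that a gene without a count could still hold up to 0.161 to 0.238 CPM (counts per M), the level of 3 counts. The labels mark the YC and the pBIC libraries as re-analysed from earlier samples and put no such mark on the pBIC10 ones, so that origin and group cannot be told apart, also where pBIC10 is set against pBIC. The 3 pBIC10 libraries shared a leading heavy chain variable segment: Ighv7-3 took 70.5% (95% exact binomial interval 69.9% to 71.1%), 69.9% (69.4% to 70.5%) and 67.4% (66.8% to 68%) of their heavy variable counts, against 0.119% to 1.73% in YC. In YC the leading segment took 3.73% to 10.9% and was a different one in each library. The 3 pBIC libraries also shared a leading segment, Ighv8-11. It took 51.6% (50.5% to 52.7%), 58.3% (57% to 59.7%) and 59.1% (58.1% to 60.1%) of their heavy variable counts. The intervals cover counting error only. The p-values below measure the spread between libraries. Whether the pBIC10 libraries, or the pBIC libraries, come from separately arisen tumours was not tested. RNA of other cell types moved with the groups. The summed level of 20 T cell markers was 236 to 271 CPM in pBIC10 and 598 to 1190 CPM in YC, with 17 of 20 lower and 0 higher. Cd3e, a defining T cell gene, held 0.708, 0.176 and 0.205 CPM in pBIC10 and 27.6, 12.3, 7.92 and 16.9 CPM in YC. The 12 NK cell markers summed to 1.69 to 5.26 CPM against 42 to 106 CPM. The 20 myeloid markers, 18 of them tested, summed to 32.3 to 40.7 CPM against 202 to 295 CPM. Klra8, Klre1 and Fcgr1 were at 0 in all pBIC10 libraries. The 15 erythroid and platelet markers summed to 700 to 1650 CPM in pBIC10 and 195 to 603 CPM in YC. The 3 that were higher were erythroid (Alas2, Hba-a1 and Hba-a2), and the 4 that were lower were the platelet genes Ppbp, Itga2b, Pf4 and Gp1bb, all named after their values were seen. With 1 library left out, 0 to 6 were higher and 2 to 4 lower. The B cell label was met in both groups, with 10 B cell markers summing to 3200 to 5180 CPM in pBIC10 and 9810 to 11700 CPM in YC.

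Of the 17718 genes, 9158 (51.7%) passed an adjusted p under 0.05 in edgeR's quasi-likelihood test, 4394 (24.8%) higher and 4764 (26.9%) lower in pBIC10. At a change of 2-fold or more, 2625 (14.8%) were higher and 3632 (20.5%) lower. All pBIC10 libraries lay above all YC libraries in 5318 genes (30%) and below them in 5493 (31%), 10811 genes (61%) in all. The median log2 fold change over all genes was 0.01. These shares are the background for each gene list below, and a list near them is not set apart. Every fold change below is pBIC10 over YC on the log2 scale with its standard error, every adjusted p is from that edgeR test, and "called" means that it passed. Values are given in library order, replicates 1 to 3 of pBIC10 and 1 to 4 of YC.

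**Figure D1:**
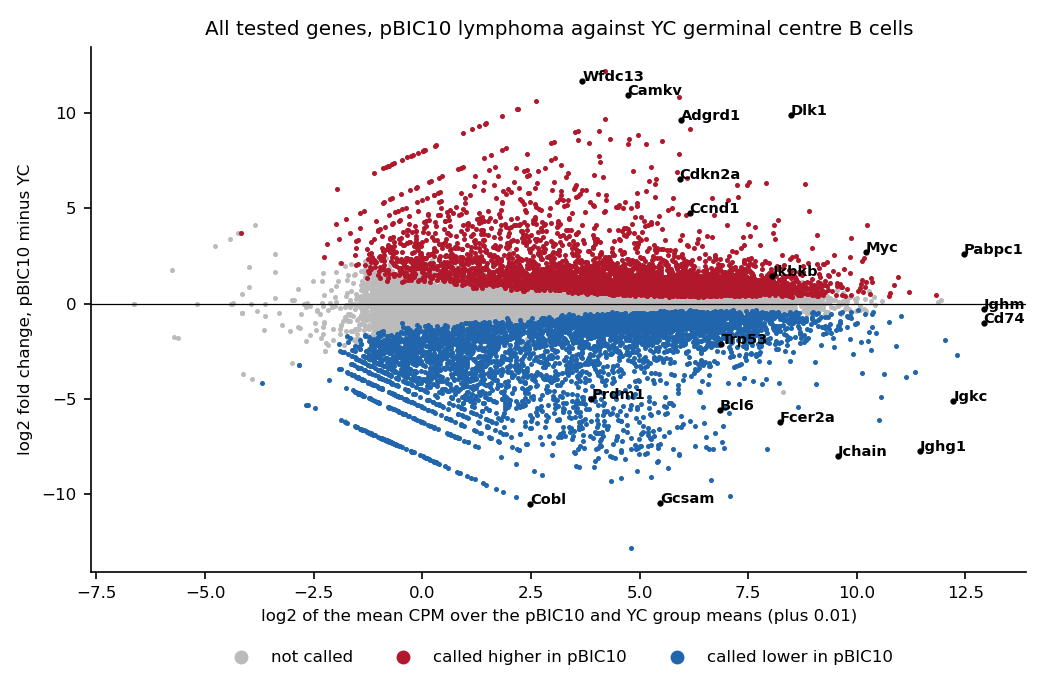
Log2 fold change of pBIC10 over YC (y axis) against log2 mean CPM (x axis) for 17718 tested genes, 1 point each, red where called higher, blue where called lower and grey where not called. The called genes spread on both sides of 0, with the named genes marked in black.

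The 4 genes targeted in the mice were examined first. Trp53, which encodes the tumour suppressor p53, held 47.4, 49.7 and 36.6 CPM in pBIC10 and 198, 194, 198 and 176 CPM in YC. The groups did not overlap (log2 fold change -2.10 ± 0.31, adjusted p = 0.000148). Prdm1 held 0.649, 0.351 and 1.59 CPM in pBIC10 and 30.1, 39.6, 16.8 and 28.3 CPM in YC, again without overlap (log2 fold change -5.02 ± 0.56, adjusted p = 2.22e-05). Ikbkb, the gene of IKK2, held 422, 414 and 335 CPM in pBIC10 and 126, 166, 144 and 129 CPM in YC, and all lymphoma libraries were above all normal ones (log2 fold change 1.47 ± 0.17, adjusted p = 2.25e-05). The counts are per gene, so that reads of the IKK2 transgene and of the mouse's own Ikbkb cannot be told apart, and reads from exons outside a deletion are still counted. Il10 held 2.71, 1.99 and 4.77 CPM in pBIC10 and 4.23, 7.45, 7.14 and 9.98 CPM in YC. The groups overlapped, since pBIC10 replicate 3 was above YC replicate 1 (log2 fold change -1.18 ± 0.44, adjusted p = 0.0371). The call was lost without pBIC10 replicate 1 or 2 (adjusted p = 0.112 and 0.143 by the same test) and without YC replicate 2, 3 or 4 (0.0687, 0.0614 and 0.1). Against pBIC, at 19.4, 6.84 and 8.78 CPM, Il10 was lower in pBIC10 (log2 difference -1.88 ± 0.46, adjusted p = 0.00809).

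Germinal centre genes were low in the lymphoma. Of 30 tested, 26 were lower in pBIC10 and 2 higher, with a median log2 fold change of -2.60. All 8 genes of a shorter marker list were lower, and their summed level was 52.4 to 94.1 CPM in pBIC10 and 812 to 1500 CPM in YC. In sorted bulk cells, fewer cells of a state and less RNA per cell cannot be told apart. Bcl6, the repressor that defines the germinal centre B cell, held 5.78, 4.22 and 3.95 CPM in pBIC10 and 321, 176, 237 and 168 CPM in YC (log2 fold change -5.60 ± 0.39, adjusted p = 6.76e-07). No pBIC10 library came near a YC library. Gcsam, a germinal centre signalling adaptor that restrains cell migration, had 3 counts in all pBIC10 libraries against 4837 in YC, a ratio of 1570 (exact 95% counting interval 538 to 7630). Its fitted change is set by so few counts that it is not used as a size. Mef2b, a transcription factor upstream of Bcl6, likewise had 3 counts against 566, a ratio of 184 (62.7 to 895). S1pr2, the receptor that confines B cells to the follicle centre, held 26.5, 24.4 and 9.69 CPM in pBIC10 and 226, 163, 167 and 136 CPM in YC (log2 fold change -3.10 ± 0.44, adjusted p = 0.000149). Replicate 3 of pBIC10 was the lowest of the 7 libraries for S1pr2. Mybl1, a cell cycle factor of germinal centre B cells, was lower as well (log2 fold change -3.71 ± 0.50, adjusted p = 0.000106). Fas, the death receptor of germinal centre B cells, held 5.01, 3.98 and 9.18 CPM against 73.3, 79.4, 86.1 and 65.5 CPM (log2 fold change -3.64 ± 0.29, adjusted p = 1.07e-06). Neil1, a DNA glycosylase, held 24.7, 27.6 and 16.9 CPM in pBIC10 and 395, 383, 558 and 390 CPM in YC (log2 fold change -4.23 ± 0.27, adjusted p = 2.7e-07). Il21r, the receptor for the T follicular helper cytokine IL-21, was lower (log2 fold change -2.67 ± 0.17, adjusted p = 2.99e-07). The 2 higher members were Tfap4, a factor downstream of MYC, at 44, 32.5 and 43.9 CPM against 14.1, 13.4, 13.9 and 14.3 CPM (log2 fold change 1.52 ± 0.19, adjusted p = 3.12e-05), and Ung, the uracil glycosylase. Ung held 62.4, 63.4 and 101 CPM against 47.6, 40.5, 61.8 and 48.3 CPM (log2 fold change 0.61 ± 0.23, adjusted p = 0.0428). This call ended without pBIC10 replicate 3 or YC replicate 1, 2 or 4 (adjusted p = 0.233, 0.0937, 0.121 and 0.092).

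On the lists of both zones of the germinal centre, more genes were lower than higher. Of 20 light zone genes, 17 were lower and 1 higher, with a median of -2.22, and of 13 dark zone genes, 9 were lower and 0 higher, with a median of -0.93. Cd83, a light zone surface protein, held 19.9, 16.3 and 27 CPM in pBIC10 and 259, 343, 354 and 320 CPM in YC (log2 fold change -3.92 ± 0.26, adjusted p = 4.4e-07). It was also lower than in pBIC, at 282, 199 and 152 CPM (log2 difference -3.32 ± 0.26, adjusted p = 2.66e-06). Fcer2a, the low-affinity IgE receptor CD23, fell from 404, 629, 684 and 650 CPM in YC to 9.56, 8.96 and 5.74 CPM in pBIC10 (log2 fold change -6.20 ± 0.28, adjusted p = 3.08e-08). The survival genes Bcl2a1a, Bcl2a1b and Bcl2a1d were lower, at -6.96, -5.73 and -6.63 on the log2 scale, but these near-identical copies share reads and their single values are uncertain. The 1 higher light zone gene was Myc. Aurka, a mitotic kinase on the dark zone list, was lower (log2 fold change -2.08 ± 0.21, adjusted p = 7.45e-06). Aurka and the lower dark zone genes Ccnb1, Ccnb2, Mki67 and Cdc20 are also on the mitosis list below, so these lists share members. Cxcr4, a chemokine receptor on the dark zone list, was not called (log2 fold change 0.37, adjusted p = 0.385). Foxo1, a transcription factor of the dark zone, held 103, 103 and 95 CPM against 325, 261, 278 and 266 CPM (log2 fold change -1.5 ± 0.17, adjusted p = 1.54e-05). Bach2, which represses Prdm1 in B cells, held 67.8, 82.1 and 97.4 CPM against 261, 237, 263 and 228 CPM (log2 fold change -1.59 ± 0.33, adjusted p = 0.00159).

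**Figure D2:**
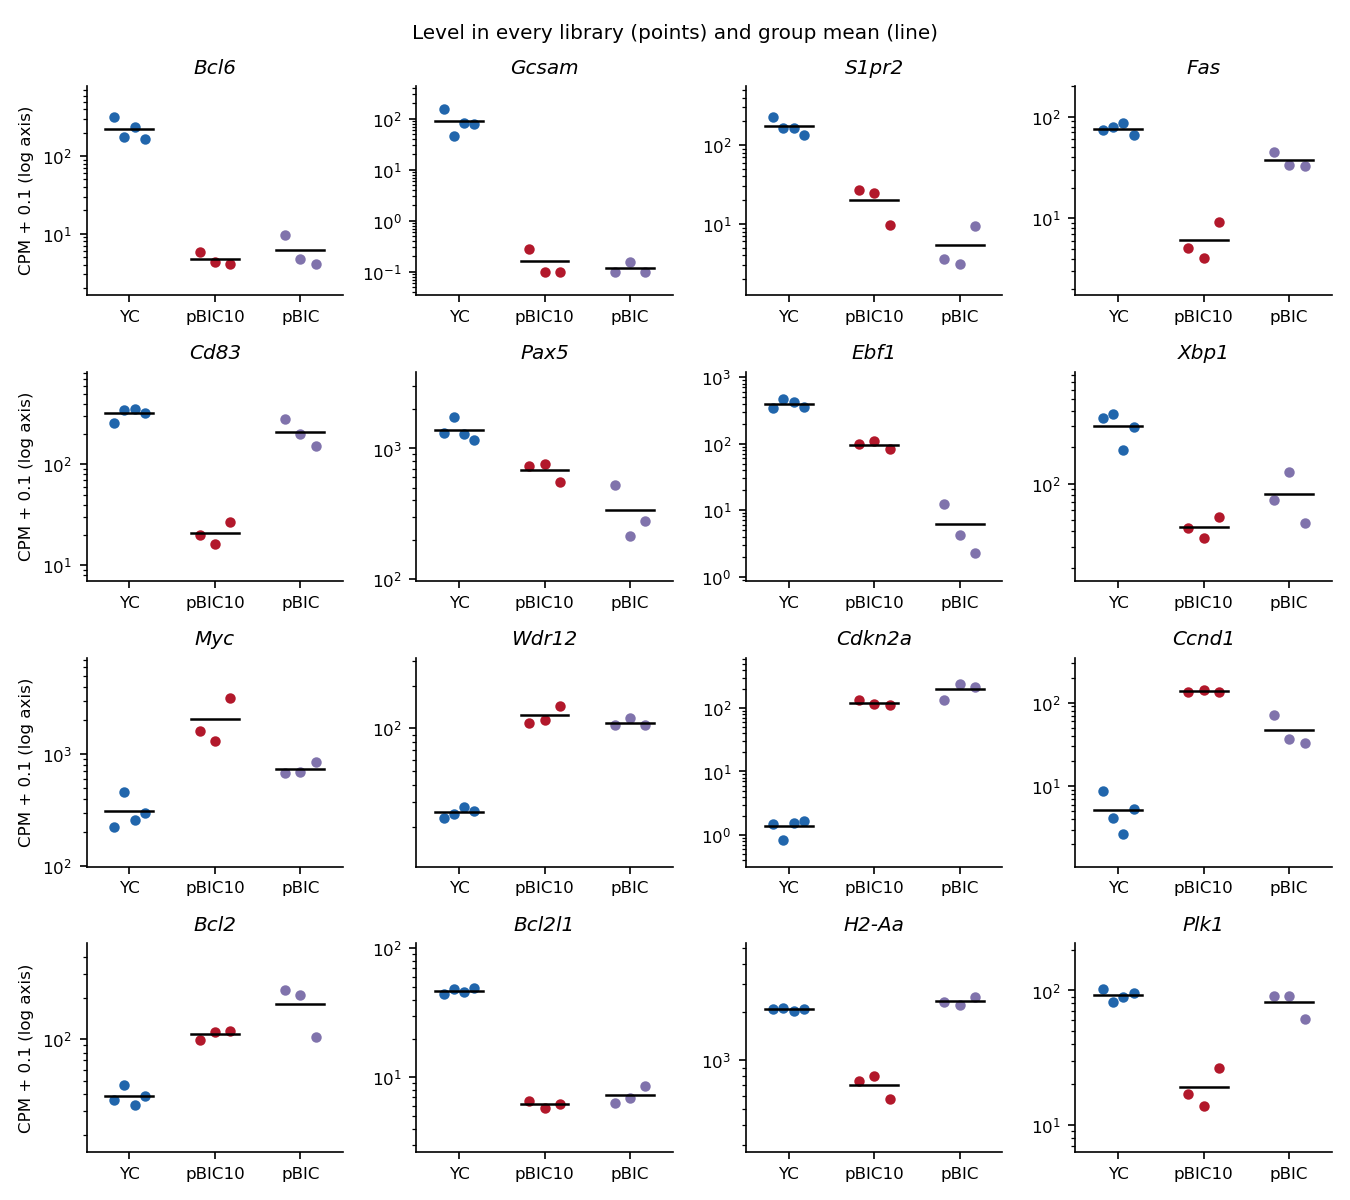
CPM plus 0.1 on a log axis for 16 genes in every YC, pBIC10 and pBIC library (points), with the group mean as a line. The 3 pBIC10 points lie apart from the 4 YC points in all 16 genes, below them for Bcl6 (3.95 to 5.78 CPM) and above them for Cdkn2a (111 to 131 CPM).

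B cell identity was lowered but present. Of 26 identity factors, 18 were lower and 1 higher, with a median of -0.90. Pax5, the B lineage commitment factor, held 736, 763 and 550 CPM in pBIC10 and 1306, 1744, 1300 and 1167 CPM in YC (log2 fold change -1.01 ± 0.27, adjusted p = 0.00767). Ebf1, which acts with Pax5, held 97.7, 110 and 82.2 CPM against 339, 461, 425 and 352 CPM (log2 fold change -2.03 ± 0.42, adjusted p = 0.00187). In both genes every pBIC10 library was below every YC library. Ebf1 was nonetheless higher in pBIC10 than in pBIC, where it held 12.1, 4.07 and 2.14 CPM (log2 difference 3.98 ± 0.49, adjusted p = 0.00012). Irf4, a factor of activated and plasma B cells, held 207, 188 and 188 CPM against 213, 430, 334 and 347 CPM (log2 fold change -0.77 ± 0.29, adjusted p = 0.0439), and leaving out any of 6 libraries, all but YC replicate 1, ended the call (adjusted p 0.0729 to 0.116). Runx3, a transcription factor, was the 1 that rose (log2 fold change 0.95 ± 0.19, adjusted p = 0.000945). Cd22, an inhibitory co-receptor, held 444, 522 and 224 CPM against 1801, 2541, 2507 and 1879 CPM (log2 fold change -2.46 ± 0.33, adjusted p = 9.26e-05). Ms4a1, the gene of CD20, was lower (log2 fold change -1.38 ± 0.38, adjusted p = 0.0106). Of 30 B cell receptor signalling genes, 19 were lower and 1 higher, with a median of -0.96. Cd79b, a signalling chain of the receptor, Rasgrp3, an activator of RAS, and Dok3, an adaptor that dampens signalling, were among the lower ones, at -1.53, -2.75 and -2.36. Cr2, the complement receptor CD21, held 9.44, 12.8 and 6.87 CPM against 178, 175, 200 and 175 CPM (log2 fold change -4.23 ± 0.61, adjusted p = 0.000161). The higher member was Btk, the receptor's kinase (log2 fold change 0.54 ± 0.19, adjusted p = 0.029), a call lost without pBIC10 replicate 1 or 2 or YC replicate 1, 2 or 4 (adjusted p 0.0506 to 0.0914).

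Subset markers were called in both directions. Of 28 memory, naive and follicular genes, 7 were higher and 9 lower, with a median of -0.22. Of 24 B-1 and marginal zone genes, 8 were higher and 11 lower, with a median of -0.54. The share called either way was 57.1% of the first list and 79.2% of the second, against 51.7% of all genes. Cd55, a complement inhibitor, held 246, 292 and 310 CPM against 71.3, 119, 56.3 and 55.3 CPM (log2 fold change 1.91 ± 0.38, adjusted p = 0.0015). Cd9, a tetraspanin of marginal zone and B-1 cells, held 77.3, 58.4 and 35.4 CPM against 15.6, 9.01, 7.36 and 10.8 CPM (log2 fold change 2.41 ± 0.30, adjusted p = 3.5e-05). Cd5, found on B-1 and T cells, held 0.295, 0.469 and 0.41 CPM against 33.6, 13.6, 9.05 and 24.7 CPM (log2 fold change -5.66 ± 0.55, adjusted p = 4.91e-06). T cell markers moved the same way as Cd5, as given above, and their part in it was not tested.

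Immunoglobulin transcripts differed by isotype. Counts of all immunoglobulin and T cell receptor genes together made up 1.07% to 1.18% of pBIC10 libraries and 2.22% to 5.79% of YC libraries. Of 12 constant genes, 8 were lower and 1 higher, with a median of -2.96, and the number lower was 5 without pBIC10 replicate 1. Ighm, the IgM heavy chain, held 7530, 7219 and 6293 CPM in pBIC10 and 9020, 11563, 7250 and 6353 CPM in YC, overlapping groups with no call (log2 fold change -0.28 ± 0.19, adjusted p = 0.238). Ighg1, the IgG1 heavy chain, held 28.5, 26.4 and 22.4 CPM against 5211, 6196, 2172 and 8701 CPM (log2 fold change -7.76 ± 0.58, adjusted p = 2.07e-06). Every YC library exceeded every pBIC10 library by a wide margin. Both groups carry the Cre at the Cγ1 locus. Ighg2b and Igha were also lower, at -4.88 and -5.44. Igkc, the kappa constant gene, held 233, 269 and 296 CPM against 11574, 12150, 4552 and 8877 CPM (log2 fold change -5.13 ± 0.34, adjusted p = 5.35e-07). Iglc2, a lambda constant gene, was the 1 that rose, at 854, 762 and 680 CPM against 170, 221, 134 and 179 CPM (log2 fold change 2.12 ± 0.18, adjusted p = 1.95e-06). Near-identical lambda genes share reads, so the value for Iglc2 is uncertain. Of 220 tested genes annotated as variable segments, a class not limited to immunoglobulin, 97.7% were lower and 1.36% higher.

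Plasma cell and secretory genes were lower. Of 30 tested, 21 were lower and 0 higher, with a median of -1.11. Jchain, the joining chain of secreted antibody, held 5.31, 3.22 and 9.07 CPM in pBIC10 and 1897, 1847, 666 and 1629 CPM in YC (log2 fold change -8.00 ± 0.89, adjusted p = 2.88e-05). Xbp1, the factor that enlarges the secretory pathway, held 42.9, 34.9 and 52.2 CPM against 351, 377, 188 and 293 CPM (log2 fold change -2.80 ± 0.34, adjusted p = 4.32e-05). Sdc1, the plasma cell surface protein CD138, held 1, 0.527 and 1.18 CPM against 36.8, 33.7, 12.4 and 29.7 CPM (log2 fold change -4.94 ± 0.44, adjusted p = 2.81e-06). Ell2, an elongation factor for secreted heavy chain transcripts, and Creld2, an endoplasmic reticulum protein, were lower at -5.44 and -2.13. The groups did not overlap in these 5 genes. YC replicate 3, with the smallest share of immunoglobulin and T cell receptor counts in YC, was also the lowest YC library in all 5. The 8 plasma cell markers summed to 369 to 418 CPM in pBIC10 and 1390 to 2890 CPM in YC. The part of plasma cells among the sorted YC cells in this difference was not tested.

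Myc and most ribosome biogenesis genes rose. Myc held 1615, 1320 and 3204 CPM in pBIC10 and 224, 456, 259 and 299 CPM in YC, with no overlap (log2 fold change 2.72 ± 0.31, adjusted p = 2.53e-05). It was also above pBIC, at 683, 688 and 855 CPM (log2 difference 1.46 ± 0.33, adjusted p = 0.00552). Of 13 MYC network genes, 7 were higher and 3 lower, with a median of 0.54. Mxi1, a competitor of MYC for its partner MAX, held 88.2, 90.3 and 84.1 CPM against 9.34, 7.29, 7.92 and 10.4 CPM (log2 fold change 3.32 ± 0.23, adjusted p = 4.45e-07). Myb, a proto-oncogene of blood progenitors, held 126, 113 and 177 CPM against 20.2, 23.9, 24.9 and 35.8 CPM (log2 fold change 2.40 ± 0.23, adjusted p = 4.53e-06). Mxd3, another MAX partner, was lower (log2 fold change -2.81 ± 0.26, adjusted p = 3.89e-06). Of 40 ribosome biogenesis genes, 29 were higher and 0 lower, with a median of 0.87. Wdr12, needed to process the large subunit's RNA, held 110, 115 and 144 CPM against 22.9, 24.8, 27.8 and 25.7 CPM (log2 fold change 2.28 ± 0.15, adjusted p = 4.2e-07). Noc2l, Utp4 and Dkc1, all acting in the nucleolus, were higher at 1.64, 1.71 and 1.5. Ncl, the nucleolar protein nucleolin, held 2697, 2759 and 3211 CPM against 921, 991, 1243 and 1170 CPM (log2 fold change 1.42 ± 0.15, adjusted p = 1.2e-05). Wdr12 did not differ detectably between pBIC10 and pBIC (log2 difference 0.17 ± 0.16, adjusted p = 0.457). Of 79 cytosolic ribosomal protein genes, 28 were higher and 2 lower, with a median of 0.35. Rpl22, Rpl30 and Rplp0 were higher at 1.14, 2.34 and 0.97, and Rpl22l1, the paralog of Rpl22, was lower at -1.06. Ribosomal protein genes have many processed pseudogenes that can take reads, so single values are uncertain. Of 37 nuclear respiratory chain genes, 13 were higher and 0 lower, with a median of 0.35. Cox6c, a subunit of cytochrome oxidase, held 146, 188 and 186 CPM against 53.2, 39.9, 47.9 and 50.1 CPM (log2 fold change 1.86 ± 0.20, adjusted p = 1.29e-05).

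**Figure D3:**
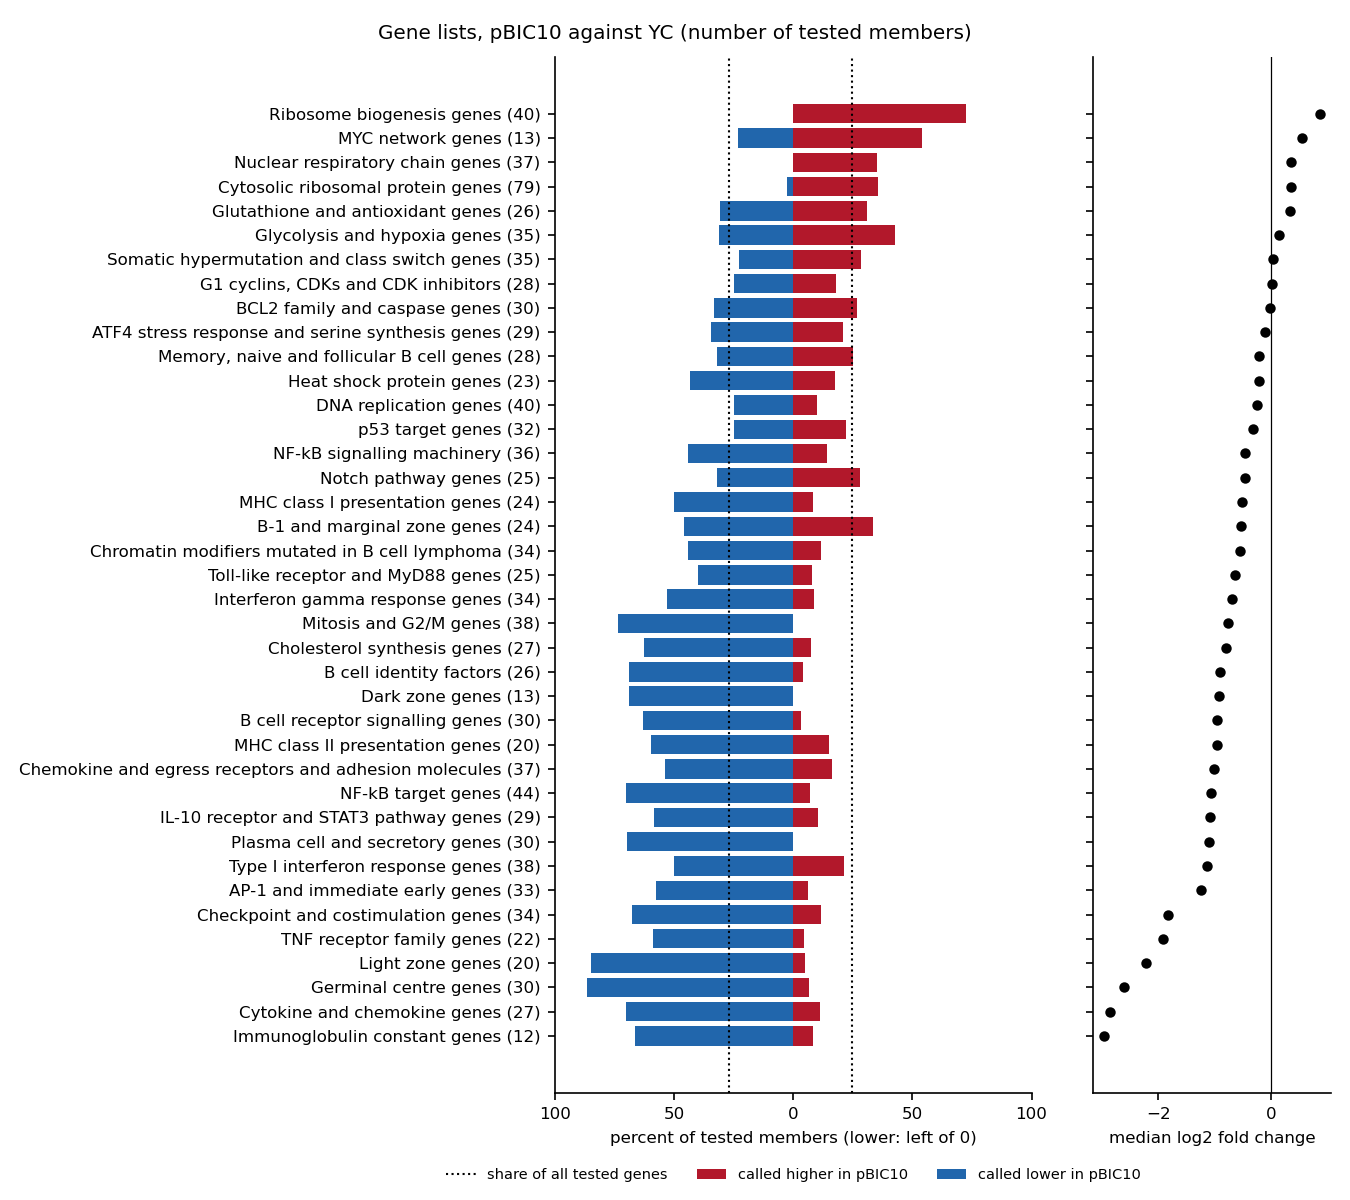
For each gene list other than the cell type marker lists and the targeted genes, the percent of tested members called higher (red) and lower (blue) in pBIC10 and the median log2 fold change (right), with the share of all tested genes as dotted lines. Of the lists plotted, ribosome biogenesis genes have the highest median at 0.87, and immunoglobulin constant genes the lowest at -2.96.

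Genes of mitosis were lower while those of DNA replication were mixed. Of 38 mitosis and G2/M genes, 28 were lower and 0 higher, with a median of -0.77, and 18 were lower without pBIC10 replicate 2. Plk1, a kinase that drives mitotic entry, held 16.8, 13.6 and 26.1 CPM in pBIC10 and 102, 81.4, 89.1 and 95.9 CPM in YC (log2 fold change -2.28 ± 0.24, adjusted p = 8.64e-06). Plk1 was also below pBIC, at 91.3, 91.5 and 61.6 CPM (log2 difference -2.11 ± 0.25, adjusted p = 4.35e-05). Foxm1, a transcription factor of G2/M genes, held 61.2, 58.2 and 75.9 CPM against 169, 155, 181 and 158 CPM (log2 fold change -1.35 ± 0.15, adjusted p = 1.63e-05). Kif23, a motor of cell division, was lower (log2 fold change -1.76 ± 0.18, adjusted p = 7.42e-06). Mki67, the proliferation marker, held 494, 448 and 502 CPM against 995, 814, 1407 and 992 CPM (log2 fold change -1.13 ± 0.30, adjusted p = 0.00687). All pBIC10 libraries were below all YC libraries in these 4 genes. Of 40 replication genes, 4 rose and 10 fell (median -0.26), and 5 were lower without pBIC10 replicate 1 or 2. Mcm6, a subunit of the replicative helicase, held 614, 632 and 857 CPM against 362, 269, 465 and 360 CPM (log2 fold change 0.95 ± 0.21, adjusted p = 0.00227). Rpa2, which coats single-stranded DNA, was higher (log2 fold change 1.07 ± 0.21, adjusted p = 0.000861), and Pold1, a replicative polymerase, was lower (log2 fold change -1.36 ± 0.17, adjusted p = 3.57e-05). Among 28 genes of G1, 5 were higher and 7 lower, with a median of 0.02. Cdkn2a, which encodes the CDK inhibitor p16 and the p53 activator ARF, held 131, 117 and 111 CPM in pBIC10 and 1.41, 0.737, 1.41 and 1.57 CPM in YC (log2 fold change 6.53 ± 0.27, adjusted p = 2.51e-08). Ccnd1, cyclin D1, held 134, 142 and 136 CPM against 8.53, 4.01, 2.55 and 5.28 CPM (log2 fold change 4.75 ± 0.38, adjusted p = 2.38e-06), and Cdk6, its kinase partner, 119, 124 and 217 CPM against 39.7, 46.8, 74 and 63 CPM (log2 fold change 1.45 ± 0.24, adjusted p = 0.000296). Rb1, the retinoblastoma protein that these kinases inactivate, was higher (log2 fold change 1.52 ± 0.27, adjusted p = 0.00047), and Cdkn2c, the inhibitor p18, was lower (log2 fold change -1.83 ± 0.27, adjusted p = 0.000127). The groups did not overlap in any of these 5 genes.

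The promoters of the mitosis genes were read from RefSeq (build GRCm38.p6) as the 250 bases before the start site. Since mitosis genes are known to be controlled through the CHR element and CCAAT boxes, those letters were searched on both strands, beside the E-box CACGTG bound by MYC and the Y box CTGATTGG of MHC class II genes. The 4 motifs and 3 lists were picked after the values of the lists were seen. TTTGAA, the core of the CHR element, was in 35.5% of the 31 mitosis genes with a promoter in the table and in 13.9% of all 11346 tested genes with one. CCAAT was in 74.2% against 40.5%. The Y box contains the CCAAT letters on its other strand, and it was in 29% against 6.36%. The E-box was in 9.68% against 9.32%. Among the 35 ribosome biogenesis genes with a promoter, the E-box was in 5.71%, below the share of all genes. The CHR core was in 11.4% of them, the CCAAT box in 28.6% and the Y box in 2.86%. Within the mitosis list, 9 of 11 genes with TTTGAA and 14 of 20 without it were called, with medians of -0.86 and -0.79. For CCAAT, 19 of 23 genes with it and 4 of 8 without it were called, with medians of -0.99 and -0.58. The windows of the 3 mitosis genes with TTTGAA and the smallest adjusted p are shown, with that match, or its reverse complement, in capitals, written 5′ to 3′ on the gene's strand.
Espl1, chr15:102296043-102296292, plus strand: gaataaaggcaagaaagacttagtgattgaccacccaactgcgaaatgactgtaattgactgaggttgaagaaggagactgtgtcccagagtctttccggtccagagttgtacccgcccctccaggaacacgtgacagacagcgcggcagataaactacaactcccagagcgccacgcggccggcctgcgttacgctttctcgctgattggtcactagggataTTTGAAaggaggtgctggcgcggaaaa
Prc1, chr7:80294226-80294475, plus strand: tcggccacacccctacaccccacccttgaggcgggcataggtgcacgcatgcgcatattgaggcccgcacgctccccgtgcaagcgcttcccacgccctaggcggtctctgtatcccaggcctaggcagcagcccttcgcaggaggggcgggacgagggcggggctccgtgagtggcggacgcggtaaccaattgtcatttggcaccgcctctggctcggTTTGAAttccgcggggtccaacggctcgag
Ube2c, chr2:164769679-164769928, plus strand: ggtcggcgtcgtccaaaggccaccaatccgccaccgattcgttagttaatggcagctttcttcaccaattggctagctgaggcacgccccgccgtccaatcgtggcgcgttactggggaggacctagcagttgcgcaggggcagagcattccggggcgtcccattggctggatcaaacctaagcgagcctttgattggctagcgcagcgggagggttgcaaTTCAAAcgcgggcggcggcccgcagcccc
Espl1, the protease separase, Prc1, which bundles the spindle midzone, and Ube2c, a ubiquitin conjugase of mitotic exit, were lower at -1.43, -1.12 and -1.35. A match is a description of letters, and it shows no binding.

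Genes known to be activated by p53 did not move as a group. Of 32, 7 rose and 8 fell (median -0.32), and 13 were lower in a fit of the pBIC10 and YC libraries alone. Mdm2, the ubiquitin ligase of p53, held 59, 53.2 and 52.6 CPM in pBIC10 and 89.1, 100, 148 and 125 CPM in YC (log2 fold change -1.07 ± 0.18, adjusted p = 0.000322). Cdkn1a, the CDK inhibitor p21, held 14.3, 14.2 and 5.18 CPM against 3.86, 4.91, 5.66 and 8.91 CPM. Its groups overlapped through pBIC10 replicate 3, and it was not called (log2 fold change 0.94 ± 0.53, adjusted p = 0.156). Psrc1, a spindle protein, was lower at 0.649, 0.469 and 0.41 CPM against 15.9, 17.8, 24.3 and 19.3 CPM (log2 fold change -5.23 ± 0.38, adjusted p = 5.91e-07). Sesn1, a stress-induced inhibitor of mTORC1, was higher (log2 fold change 1.73 ± 0.36, adjusted p = 0.00176) while Sesn2, its relative, was lower (log2 fold change -2.34 ± 0.30, adjusted p = 4.2e-05). Rrm2b, a p53-induced subunit of ribonucleotide reductase, was higher (log2 fold change 1.38 ± 0.28, adjusted p = 0.00131).

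NF-kB target genes were mostly lower than in normal germinal centre cells. Of 44, 31 were lower and 3 higher, with a median of -1.07. T, NK and myeloid cell markers were higher in YC, as given above, and Vcam1 is on both this list and the myeloid one. The part of those cells in the counts of NF-kB genes was not tested. Of 36 genes of the signalling machinery, 16 were lower and 5 higher, with a median of -0.46. Nfkb2, the subunit of the non-canonical arm, held 85.5, 86.3 and 82.5 CPM in pBIC10 and 248, 337, 244 and 245 CPM in YC (log2 fold change -1.66 ± 0.16, adjusted p = 4.95e-06). Map3k14, the kinase NIK of that arm, held 16.5, 18.9 and 16.5 CPM against 83.1, 97.9, 72.2 and 64.3 CPM (log2 fold change -2.20 ± 0.23, adjusted p = 7.58e-06). Traf3, which marks NIK for degradation, went the other way at 283, 300 and 271 CPM against 90.2, 93.9, 95.4 and 88.2 CPM (log2 fold change 1.63 ± 0.21, adjusted p = 5.05e-05). Birc3, a ubiquitin ligase that works with Traf3, and Ikbkg, the regulatory subunit of the IKK complex, were higher at 1.07 and 0.92. Traf1, an NF-kB-induced adaptor, was lower at 22.5, 21.4 and 11 CPM against 155, 198, 153 and 137 CPM (log2 fold change -3.13 ± 0.33, adjusted p = 1.14e-05). A lower level was also seen for Icam1, which binds integrins (log2 fold change -1.79 ± 0.17, adjusted p = 4.62e-06). Besides Birc3 and Myc, the remaining higher target was Il12a, the p35 chain of IL-12 and IL-35, at 24.1, 29.6 and 48.4 CPM against 6.23, 9.34, 13.9 and 14.5 CPM (log2 fold change 1.63 ± 0.53, adjusted p = 0.0225), a call lost without pBIC10 replicate 3 or YC replicate 1 or 2 (adjusted p = 0.0976, 0.0535 and 0.0639).

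Within the BCL2 family and the caspases, 8 of 30 rose and 10 fell (median -0.03), and 5 were higher without pBIC10 replicate 2. Bcl2, the survival protein that germinal centre cells keep low, held 98.9, 113 and 114 CPM in pBIC10 and 35.7, 45.9, 32.9 and 38.8 CPM in YC (log2 fold change 1.5 ± 0.23, adjusted p = 0.00017). Bcl2l1, the gene of BCL-XL, went the other way, at 6.49, 5.74 and 6.1 CPM against 44, 48.4, 45.6 and 49.1 CPM (log2 fold change -2.93 ± 0.19, adjusted p = 4e-07). Neither gene's groups overlapped. Mcl1, another survival protein, held 707, 734 and 530 CPM against 459, 440, 447 and 472 CPM (log2 fold change 0.53 ± 0.16, adjusted p = 0.0122). This call ended without pBIC10 replicate 1 or 2 (adjusted p = 0.051 and 0.0598).

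IL-10 acts through its receptor, JAK1 and STAT3. Of 29 genes on a list of IL-10 receptor and STAT3 pathway genes, 17 were lower and 3 higher, with a median of -1.08. The list is broader than the receptor pathway, since it holds Il10 itself and genes such as Bcl6, Il21r and Myc. The receptor chains Il10ra and Il10rb were not called (log2 fold change -0.28 and 0.18, adjusted p = 0.269 and 0.453). Stat3 was lower (log2 fold change -1.29, adjusted p = 9.24e-05). Jak1 held 113, 121 and 110 CPM in pBIC10 and 541, 463, 491 and 430 CPM in YC (log2 fold change -2.07 ± 0.17, adjusted p = 1.39e-06). Socs1, a feedback inhibitor of JAK kinases, held 4.9, 4.8 and 6.36 CPM against 21.3, 26.5, 27.8 and 28.3 CPM (log2 fold change -2.28 ± 0.24, adjusted p = 9e-06). Socs1 was also below pBIC (log2 difference -2.36 ± 0.25, adjusted p = 2e-05). Socs3, the feedback inhibitor induced by STAT3, held 78.8, 86.6 and 22.5 CPM against 36.5, 48.1, 47.7 and 56.3 CPM and was not called (log2 fold change 0.41 ± 0.41, adjusted p = 0.425). Replicate 3 of pBIC10 was below all YC libraries and the other 2 above them, and without pBIC10 replicate 3 it was called higher (adjusted p = 0.0362). Against pBIC, at 7.08, 3.28 and 2.95 CPM, Socs3 was higher (log2 difference 3.82 ± 0.50, adjusted p = 0.000195). Il6st, the gp130 chain that signals for IL-6 family cytokines, was higher at 77.6, 90.3 and 69.1 CPM against 30.8, 18.1, 14.1 and 24.5 CPM (log2 fold change 1.85 ± 0.34, adjusted p = 0.00078). Batf, an AP-1 factor on this list, was lower at 8.38, 6.09 and 6.66 CPM against 45.2, 70.3, 45.5 and 46.2 CPM (log2 fold change -2.88 ± 0.35, adjusted p = 3.74e-05).

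MHC class II genes, which present antigen to helper T cells, were lower. Of 20, 12 were lower and 3 higher, with a median of -0.96. H2-Aa held 748, 799 and 577 CPM in pBIC10 and 2099, 2120, 2039 and 2092 CPM in YC (log2 fold change -1.56 ± 0.15, adjusted p = 4.53e-06). H2-Ab1, its partner chain, held 716, 812 and 527 CPM against 2779, 3086, 3575 and 3156 CPM (log2 fold change -2.20 ± 0.18, adjusted p = 1.39e-06). H2-Eb1 was lower too (log2 fold change -1.97 ± 0.17, adjusted p = 2.44e-06). H2-Oa, a chain of the peptide-loading regulator H2-O, held 17.3, 17.5 and 21.2 CPM against 139, 162, 146 and 159 CPM (log2 fold change -3.02 ± 0.23, adjusted p = 8.24e-07). Ciita, the master activator of class II genes, held 101, 94.1 and 82.9 CPM against 452, 551, 459 and 435 CPM (log2 fold change -2.36 ± 0.28, adjusted p = 2.54e-05). H2-Aa was at 2323, 2217 and 2485 CPM in pBIC and lower in pBIC10 than there (log2 difference -1.73 ± 0.16, adjusted p = 6.33e-06). Cd74, the invariant chain, held 5859, 6954 and 2579 CPM against 9679, 9563, 12041 and 10139 CPM, lowest in pBIC10 replicate 3 (log2 fold change -1.01 ± 0.27, adjusted p = 0.00664). Ctss, the protease that trims the invariant chain, was one of the 3 higher genes (log2 fold change 0.52 ± 0.15, adjusted p = 0.0114), a call lost without pBIC10 replicate 1 (adjusted p = 0.0644). Myeloid cells also carry class II, and their markers were higher in YC, as given above. Their part in the class II difference was not tested.

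Class II promoters carry a Y box, and the search described above found CTGATTGG in 26.7% of the 15 class II genes with a promoter in the table, 4 genes, against 6.36% of all genes. CCAAT was in 80% of them, the E-box in 20% and TTTGAA in 6.67%. Of the 4 genes with a Y box 3 were called, with a median of -1.76, and of the 11 without it 9 were called, with a median of -0.81. Calls in either direction are counted, so genes called higher can be among the 9. The 3 called genes with a Y box are shown with it in capitals, on the same terms.
H2-Oa, chr17:34092129-34092378, plus strand: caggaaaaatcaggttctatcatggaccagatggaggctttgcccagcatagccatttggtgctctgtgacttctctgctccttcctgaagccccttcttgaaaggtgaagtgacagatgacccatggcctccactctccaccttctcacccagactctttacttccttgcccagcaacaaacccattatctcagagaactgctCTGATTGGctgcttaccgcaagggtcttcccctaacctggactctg
H2-Eb1, chr17:34305617-34305866, plus strand: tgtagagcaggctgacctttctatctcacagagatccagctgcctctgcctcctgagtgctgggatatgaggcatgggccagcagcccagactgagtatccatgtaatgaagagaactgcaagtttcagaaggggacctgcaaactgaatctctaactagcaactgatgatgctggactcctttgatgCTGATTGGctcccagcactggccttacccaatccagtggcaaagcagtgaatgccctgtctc
H2-Aa, chr17:34287824-34288073, minus strand: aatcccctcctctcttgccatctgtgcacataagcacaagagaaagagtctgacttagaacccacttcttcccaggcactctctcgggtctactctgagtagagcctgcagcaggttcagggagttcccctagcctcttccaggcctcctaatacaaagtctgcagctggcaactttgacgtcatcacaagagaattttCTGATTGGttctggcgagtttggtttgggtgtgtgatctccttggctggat

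More class I and interferon genes were lower than higher, and many were not called. Of 24 genes of MHC class I presentation, 12 fell and 2 rose, with a median of -0.51. Tap1 and Tap2, which form the peptide transporter, were lower at -1.26 and -1.13. H2-M3, a non-classical class I chain, was lower (log2 fold change -1.78 ± 0.18, adjusted p = 6.98e-06), and Canx, the chaperone calnexin, was higher (log2 fold change 0.79 ± 0.17, adjusted p = 0.00161). Of 34 genes that respond to interferon gamma, 18 fell and 3 rose, with a median of -0.70. Serpina3g, a protease inhibitor, held 309, 280 and 272 CPM in pBIC10 and 37.9, 52.4, 28.9 and 30.5 CPM in YC (log2 fold change 2.94 ± 0.27, adjusted p = 3.9e-06), and Gbp3, an interferon-induced GTPase, was higher (log2 fold change 2.07 ± 0.28, adjusted p = 7.39e-05). Of 38 type I interferon response genes, 19 were lower and 8 higher, with a median of -1.13, and 5 were higher without pBIC10 replicate 2. Stat2, a factor of interferon signalling, held 36.4, 31.4 and 26.5 CPM against 125, 170, 180 and 138 CPM (log2 fold change -2.29 ± 0.22, adjusted p = 5.4e-06). Zbp1, a sensor of nucleic acids, was lower (log2 fold change -3.75 ± 0.56, adjusted p = 0.000218), and Ifi213, a member of the interferon-inducible p200 family, was higher at 283, 366 and 267 CPM against 28.2, 30.5, 22.9 and 28.2 CPM (log2 fold change 3.48 ± 0.37, adjusted p = 2.03e-05). Members of the p200 family are similar in sequence and can share reads.

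Genes by which B cells address other cells were mostly lower. Of 34 checkpoint and costimulation genes, 23 were lower and 4 higher, with a median of -1.82. Of 27 cytokine and chemokine genes, 19 were lower and 3 higher, with a median of -2.86, and of 22 TNF receptor family genes, 13 were lower and 1 higher, with a median of -1.91. The first 2 medians are the same with members at 0 counts set to their bound. Cd274, the gene of PD-L1, held 52.6, 39 and 25 CPM in pBIC10 and 39.7, 94.7, 70.5 and 101 CPM in YC, overlapping groups without a call (log2 fold change -0.98 ± 0.45, adjusted p = 0.0868), though it was called lower without YC replicate 1 (adjusted p = 0.0347). Cd80, a costimulator, was higher at 38.2, 34.9 and 34 CPM against 4.37, 10.2, 3.54 and 6.56 CPM (log2 fold change 2.53 ± 0.36, adjusted p = 9e-05), as was Pvr, the CD155 ligand of T and NK cell receptors (log2 fold change 1.06 ± 0.22, adjusted p = 0.00136). Havcr1, the receptor TIM-1, held 1.06, 0.82 and 2.05 CPM against 66.1, 55.9, 87.4 and 85.7 CPM (log2 fold change -5.79 ± 0.33, adjusted p = 1.38e-07). Ctla4, known from T cells, held 3.01, 2.99 and 5.54 CPM against 28, 21.8, 39.3 and 62.6 CPM (log2 fold change -3.30 ± 0.38, adjusted p = 2.14e-05). Csf1, the macrophage growth factor, held 49.5, 50.6 and 28.3 CPM against 2.52, 3.77, 5.09 and 5.56 CPM (log2 fold change 3.33 ± 0.42, adjusted p = 5.24e-05). Ccl22, a chemokine that draws T cells, held 0.708, 0.527 and 1.49 CPM against 22.2, 52.4, 35.7 and 74.4 CPM (log2 fold change -5.64 ± 0.49, adjusted p = 3.09e-06), and Lta, lymphotoxin alpha, was lower (log2 fold change -3.98 ± 0.45, adjusted p = 3.18e-05). T cell and NK cell markers were higher in YC, as given above, and T and NK cells express many genes of these lists. Their part in these counts was not tested.

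Of 37 chemokine and egress receptors and adhesion molecules, 20 were lower and 6 higher, with a median of -1.02. Gpr132, a receptor for oxidised lipids, held 287, 320 and 302 CPM in pBIC10 and 70.4, 73.6, 54.5 and 77.5 CPM in YC (log2 fold change 2.14 ± 0.17, adjusted p = 1.14e-06). Gpr132 was also above pBIC, at 64.1, 89.8 and 72.5 CPM (log2 difference 2.01 ± 0.19, adjusted p = 7.38e-06). Itgal and Itgb2, the 2 chains of the integrin LFA-1, were lower at -2.66 and -2.52, together with Icam1, its ligand. The part of T, NK and myeloid cells, whose markers were higher in YC, in this list was not tested.

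Some lists of metabolic and stress genes held calls in both directions and others were mostly lower. Of 35 glycolysis and hypoxia genes, 15 were higher and 11 lower, with a median of 0.14. Pdk1, which diverts pyruvate from mitochondria, held 159, 143 and 191 CPM in pBIC10 and 28.2, 31.9, 31.4 and 31.3 CPM in YC (log2 fold change 2.42 ± 0.17, adjusted p = 4.54e-07). Eno1, a glycolytic enzyme, and Slc2a3, a glucose transporter, were higher at 2.03 and 1.57. Eno1 has near-identical copies, which makes its value uncertain. Aldoc, an aldolase, was lower (log2 fold change -5.10 ± 0.38, adjusted p = 7.87e-07). Of 27 cholesterol synthesis genes, 17 were lower and 2 higher, with a median of -0.81. Hmgcs1 and Dhcr7, early and late enzymes of the pathway, were lower at -1.34 and -1.45, and Sqle, squalene epoxidase, was higher at 0.96. Of 26 glutathione and antioxidant genes, 8 were higher and 8 lower. Gsto1, a glutathione transferase, held 181, 171 and 166 CPM against 12.5, 14.2, 14.4 and 18.3 CPM (log2 fold change 3.54 ± 0.21, adjusted p = 2.08e-07). Of 29 genes of the ATF4 stress response and serine synthesis, 6 were higher and 10 lower, with a median of -0.12. Cbs, which makes cystathionine, held 13.4, 9.84 and 10.1 CPM against 0.816, 0.655, 0.354 and 0.499 CPM (log2 fold change 4.25 ± 0.32, adjusted p = 8.25e-07), and Phgdh, the first enzyme of serine synthesis, was higher (log2 fold change 1.25 ± 0.21, adjusted p = 0.000281). Of 33 AP-1 and immediate early genes, 19 were lower and 2 higher, with a median of -1.25. Jun held 79, 36.5 and 45.2 CPM against 971, 2034, 276 and 760 CPM (log2 fold change -4.24 ± 0.73, adjusted p = 0.000552), and Fosl2 was higher (log2 fold change 2 ± 0.31, adjusted p = 0.000204). Of 23 heat shock protein genes, 10 were lower and 4 higher. Hspa1a, the inducible HSP70, held 0.944, 0.293 and 0.41 CPM against 130, 77.4, 14.9 and 80.6 CPM (log2 fold change -7.10 ± 0.88, adjusted p = 5.74e-05), and its near-identical copy Hspa1b moved with it at -6.44. The mitochondrial chaperones Hspd1 and Hspa9 were higher at 1.53 and 1.54. Both Jun and Hspa1a were lowest in the same YC library, replicate 3, which was still above all pBIC10 libraries. Of 35 somatic hypermutation and class switch genes, 10 were higher and 8 lower, with 6 higher without pBIC10 replicate 3. Hmces, a protein that shields abasic sites, was lower (log2 fold change -3.24 ± 0.52, adjusted p = 0.000336). Among 34 chromatin modifiers mutated in B cell lymphoma, 4 were higher and 15 lower (median -0.55). Among 25 Toll-like receptor and MyD88 genes, 2 rose and 10 fell (median -0.65), and among the 25 of 27 Notch pathway genes that were tested, 7 rose and 8 fell (median -0.47). Over all genes, 24.8% were higher and 26.9% lower, 51.7% in all. The share called either way was 74.3% for the glycolysis list, 61.5% for glutathione and 55.2% for ATF4. It was 51.4% for hypermutation and 60% for Notch, and lists near the shares of all genes are not set apart.

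The largest increases, with immunoglobulin, T cell receptor, mitochondrially encoded, sex-specific and predicted or unnamed genes left out here and in the rankings that follow, were in genes almost without counts in normal cells. Wfdc13, Spinkl, Spint4 and Spink11, all of protease inhibitor families, had 0 counts in all YC libraries and were at least 453-fold, 167-fold, 128-fold and 96-fold higher in pBIC10, with a floor of 3 counts over the group. Wfdc13 held 32.9, 36.1 and 7.84 CPM. Camkv, a kinase-like protein, had 2790 counts against 1, a ratio of 2860 (513 to 113000), and Necab2, a calcium-binding protein, 6259 against 3, a ratio of 2140 (731 to 10400). Adgrd1, an adhesion receptor, held 102, 154 and 116 CPM in pBIC10 and 0, 0, 0.283 and 0.285 CPM in YC (log2 fold change 9.64 ± 0.51, adjusted p = 1.46e-07). Clmn, a membrane protein, held 167, 182 and 79 CPM against 0, 0.0819, 0.141 and 0.713 CPM (log2 fold change 9.17 ± 0.61, adjusted p = 9.34e-07). Dlk1, an imprinted gene of the Notch ligand family, held 1074, 1019 and 39.7 CPM against 0.667, 0.491, 0.283 and 1.43 CPM (log2 fold change 9.93 ± 1.06, adjusted p = 2.06e-05). Kcnj5, a potassium channel, held 50.7, 58.7 and 1.85 CPM, with 1897 counts against 2, a ratio of 972 (269 to 8030). In Dlk1 and Kcnj5 pBIC10 replicate 3, from the male, was far below the other 2, though above YC. All 10 genes were also called higher in pBIC10 than in pBIC, where Adgrd1 held 0.75, 0.226 and 0.321 CPM (log2 difference 8.13 ± 0.51, adjusted p = 6.96e-07).

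The largest decreases among the same genes ended in genes with almost no counts in pBIC10. Cobl, Vipr1 and Emp2 had 0 counts in all 3 pBIC10 libraries and were at least 193-fold, 126-fold and 90.4-fold lower. Cobl acts on actin, Vipr1 is a neuropeptide receptor and Emp2 a membrane protein. Vipr1 and Emp2 were also at 0 in all 3 pBIC libraries. Gxylt2, Slc4a3 and Dlg5 had 1 count each in pBIC10, with ratios of 699 (125 to 27700), 617 (110 to 24400) and 474 (84.7 to 18800). Cd7, known from T and NK cells, had 2 counts against 505, a ratio of 246 (67.8 to 2040), beside the T and NK cell markers given above. Grm6, a glutamate receptor, held 0.236, 0.117 and 0.0513 CPM in pBIC10 and 42.9, 61.7, 83.3 and 58.3 CPM in YC (log2 fold change -8.79 ± 0.89, adjusted p = 1.41e-05). Jchain and Gcsam, described above, complete the 10.

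**Figure D4:**
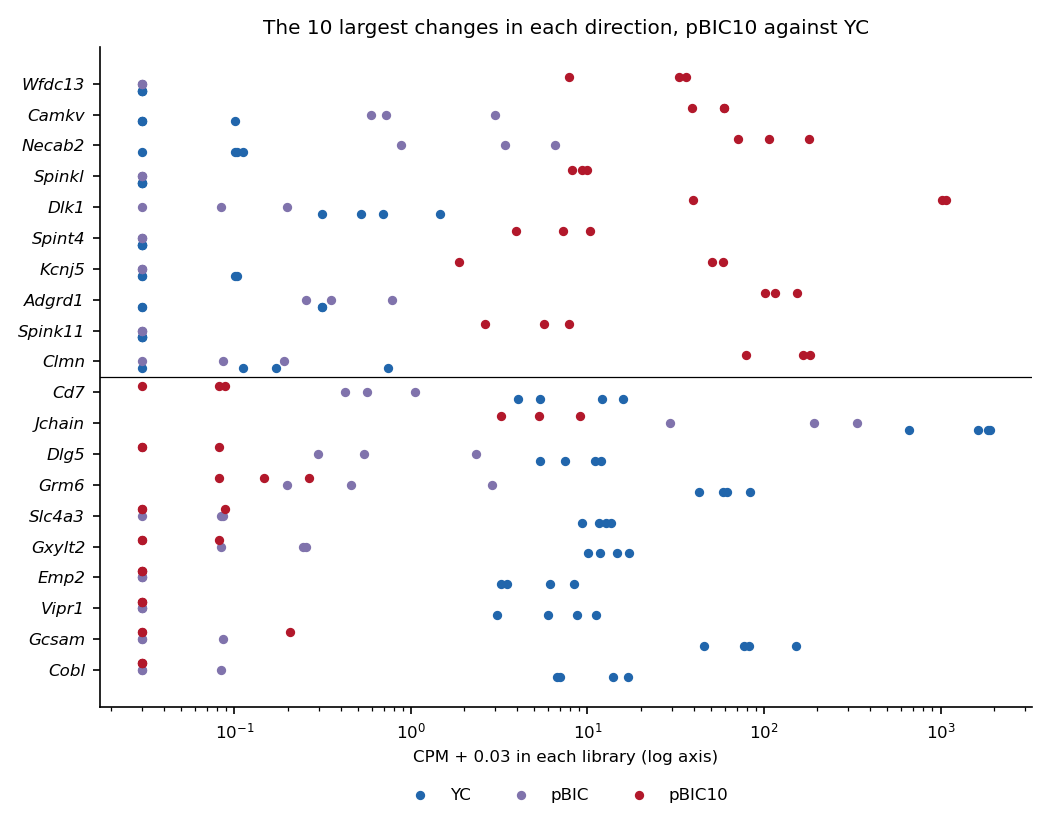
CPM plus 0.03 on a log axis in every YC, pBIC and pBIC10 library for the 10 largest increases (above the line) and decreases (below it) in pBIC10, leaving out immunoglobulin, T cell receptor, mitochondrially encoded, sex-specific and predicted or unnamed genes. In each gene the red pBIC10 points and the blue YC points are separate, and for Dlk1 and Kcnj5 1 pBIC10 point lies far from the other 2.

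By difference in CPM, which also depends on transcript length, the largest gains were in Pabpc1, Crip1, Ncl, Myc and Ivns1abp. Pabpc1, which binds poly(A) tails, held 10377, 10258 and 8646 CPM in pBIC10 and 1607, 1495, 1596 and 1604 CPM in YC (log2 fold change 2.63 ± 0.13, adjusted p = 5.84e-08). Ivns1abp, an actin-associated protein, held 1798, 2042 and 1963 CPM against 326, 362, 391 and 367 CPM (log2 fold change 2.42 ± 0.17, adjusted p = 5.16e-07). Crip1, a LIM domain protein, held 3271, 3008 and 569 CPM against 178, 134, 115 and 99.7 CPM (log2 fold change 4.11 ± 0.51, adjusted p = 5.7e-05), lowest in pBIC10 replicate 3. With the same genes left out, the largest losses were in Cd74, H2-Ab1, Cd22, Jchain and H2-Eb1.

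Fold changes depended on GC content. The GC quartile and chromosome values cover genes with a mean of at least 5 CPM in pBIC10 or YC, 12493 of the 17718 tested. Each quartile holds 2960 of those with a known GC content. In quartiles of transcript GC content from low to high, the median log2 fold change was 0.33, 0.20, 0.01 and -0.31, and the share of genes called higher fell from 38.6% to 18.7%. With the GC trend removed in each library, an alternative chosen after seeing the data, 9012 genes were called, 4371 higher and 4641 lower. Chromosome medians ran from -0.18 on chromosome 19 to 0.49 on chromosome 1, and from -0.25 on chromosome 12 to 0.38 on chromosomes 1 and 18 with the trend removed. Across the 20 chromosomes the median fold change and the median GC content had a Pearson r of -0.47 and a Spearman rho of -0.434, a description over chromosomes that share their libraries. On chromosome 1, 46% of these genes were called higher and 16.3% lower. By chromosome, the share called higher ran from 19.5% on chromosome 11 to that 46%. The share called lower ran from 12.4% on chromosome 18 to 40.8% on chromosome 12. Immunoglobulin genes were not left out of these values, and their part in the values of chromosome 12 was not tested. The shares over all tested genes, 24.8% and 26.9%, have no such CPM minimum and are not a like background. The part of library preparation, sequencing or DNA copy number in these values was not tested.

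**Figure D5:**
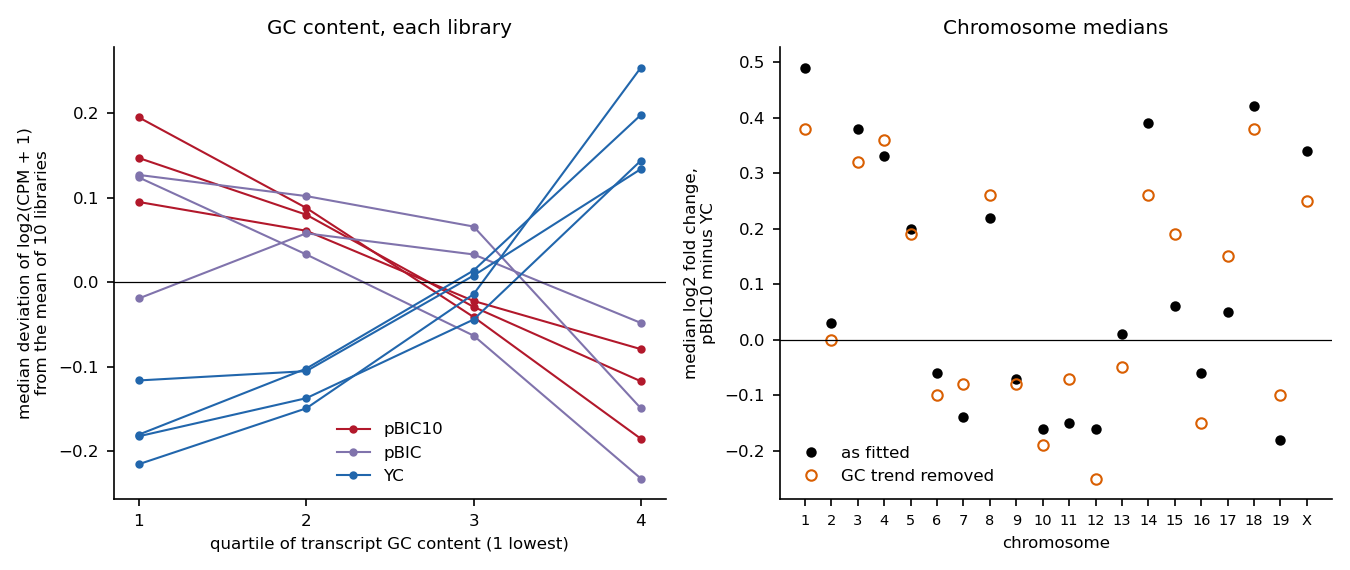
Both panels cover genes with a mean of at least 5 CPM in pBIC10 or YC. Left, the median deviation of log2(CPM + 1) from the mean of 10 libraries by quartile of transcript GC content, 1 line per library. Right, the median log2 fold change of pBIC10 over YC on each chromosome as fitted (black) and with the GC trend removed (orange circles), with chromosome 1 at 0.49 and 0.38.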

How the data were processed

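Sequencing of poly(A) RNA from sorted splenic cells gave single-end reads of 50 nt, per the labels' protocols. The deposited values are raw read counts for each gene, made by the authors with featureCounts after FastQC on GRCm39, per the submitters' processing notes. The sources used here do not give aligner, annotation release, strand setting or versions. Labels name separate mice. No 2 libraries agreed within sampling noise.

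Low counts were removed with filterByExpr (edgeR 4.0.16, R 4.3.3). After TMM scaling, a robust quasi-likelihood model with a coefficient for each group was fitted to all 10 libraries, which share 1 estimate of the spread. Calls are two-sided F tests at an adjusted p under 0.05 (Benjamini-Hochberg over 17718 genes). The SE approximates as the size of the fold change over the root of F. CPM are TMM-scaled. A group at 0 counts got a floor of 3 counts over the group, and one with 1 to 3 counts a ratio with its exact 95% counting interval. The code was tested on simulated data.

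The comparison, lists and rules were chosen with earlier results of these data known. Named genes were the 4 targeted genes, 18 fixed genes, the 10 largest called changes each way with at least 5 CPM and no overlap, the 5 largest CPM differences each way of the same genes, and up to 4 called members each way of lists with 3 or more. The largest changes and differences leave out immunoglobulin, T cell receptor, mitochondrially encoded, sex-specific, predicted, LOC and clone-named genes. Of the 289 genes that qualified, 164 were followed, picked after their values were seen, and 11 more were taken from outside the rule (Espl1, Prc1 and Ube2c for their promoters, Cd3e as a marker, and 7 in the closing section). Some genes of the rule are not reported here. Alternatives were RLE and upper quartile scaling, DESeq2 1.42.0, limma-voom (limma 3.58.1), other filters, pBIC10 and YC fitted alone, sex as covariate and females alone. Others were stricter thresholds, leaving out immunoglobulin and T cell receptor genes, leaving out each library, and removal of the GC trend. Genes were matched by symbol to RefSeq GRCm38.p6 (98.2%) for chromosome, and GC content was found for 90%, GENCODE vM21. Figures used matplotlib 3.10.9 (Python 3.11.15).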

Additional observations from a re-analysis of the deposited data

Results flagged for a closer look

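In 11 of the genes followed, 1 of the 4 YC libraries stood apart from the other 3 by Dixon's test at the 95% level. Chance alone sets apart about 1 in 20 groups. The third YC library, from the male, was high for Neil1 (558 CPM) and Cr2 (200 CPM) and low for Ell2 (64.3 CPM) and Necab2 (0 CPM). The second was low for Pabpc1 (1490 CPM) and Hmgcs1 (61.2 CPM) and high for Nfkb2 (337 CPM) and Batf (70.3 CPM). The first was low for Pvr (6.01 CPM) and Pdk1 (28.2 CPM), and the fourth high for Camkv (0.0713 CPM). The values of Camkv and Necab2 rest on 1 and 3 counts over the YC group. In all 11 genes the groups stayed apart.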

How the results depend on the processing

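The count of called genes was 9158 and stayed within 1.5 times of it in every alternative run except a test against a change of 1.5-fold, which called 5872 genes, 2525 of them higher. Leaving out each library in turn gave 7969 to 8324 called genes, 3764 to 4000 higher and 4140 to 4324 lower. DESeq2 called 9376 and limma-voom 9122. No called gene of the 175 followed, which were picked with their values known, reversed its direction under an alternative run. Of these genes 2 to 5 lost their call with any 1 pBIC10 or YC library left out, 6 in females alone (Pax5, Irf4, Ms4a1, Ung, Btk and Il12a), 3 with the GC trend removed, 8 at an adjusted p under 0.01 and 11 against 1.5-fold. Calls lost without 1 library are given beside the genes. The differences from pBIC given as called in the report kept their calls without each library. The 2 cholesterol and 2 MHC class I genes called higher and the 2 ribosomal protein genes called lower became 1 each without some libraries. No paired analysis was possible because the labels give no replicate numbers that pair the groups. Few counts limit genes near 0 CPM in a group, whose fold changes are given as bounds or ratios.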

Other observations

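Genes outside the naming rule were read after their values were seen. Lifr, the receptor of leukaemia inhibitory factor, held 610, 642 and 179 CPM in pBIC10 and 2.97, 6.22, 6.08 and 7.99 CPM in YC (log2 fold change 6.36 ± 0.50, adjusted p = 2.75e-06). In pBIC it held 17.2, 10.1 and 21.2 CPM. Zbtb16, the transcription factor PLZF, held 149, 169 and 83 CPM in pBIC10 and 1.48, 0.655, 0.707 and 2.71 CPM in YC (log2 fold change 6.57 ± 0.56, adjusted p = 4.53e-06). Hspg2, the matrix protein perlecan, held 296, 306 and 288 CPM against 1.33, 9.25, 3.47 and 2.21 CPM (log2 fold change 6.20 ± 0.88, adjusted p = 0.000145), and Nav2, a cytoskeletal protein, 270, 290 and 338 CPM against 6.01, 4.18, 5.45 and 8.91 CPM (log2 fold change 5.60 ± 0.36, adjusted p = 5.11e-07). S100a6, a calcium-binding protein, held 368, 360 and 40.5 CPM against 6.52, 7.37, 2.12 and 7.63 CPM (log2 fold change 5.44 ± 0.70, adjusted p = 7.84e-05). In Lifr and S100a6 pBIC10 replicate 3 was the lowest, and no gene of the 5 overlapped between pBIC10 and YC.

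Some of the genes with the largest increases lie next to each other in the order of the tested genes. Tested genes were put in order by their RefSeq position in GRCm38.p6. Of 178 called higher with a log2 fold change of 5 or more, 16 pairs were consecutive in that order. Predicted and unnamed genes were kept in this count. No like count was made over other genes, so the 16 pairs have no background beside them. Genes that were not tested can lie between them. Wfdc13 and Spint4 on chromosome 2 were such a pair, as were Spinkl and Spink11 on chromosome 18. Kcnj5 and Kcnj1 on chromosome 9 are both neighbours, in this order, of a predicted gene, Gm39317, that was higher as well. Kcnj1 held 16.6, 17.9 and 25 CPM against 0.222, 0.246, 0.637 and 0.642 CPM. Fzd10, a Wnt receptor on chromosome 5, held 25, 28.1 and 15.3 CPM against 0, 0, 0.0707 and 0.0713 CPM. In the same order it is next to its antisense gene Fzd10os. The strand setting of the counts is not known, so reads of Fzd10 and Fzd10os cannot be told apart.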
